A study of Mus musculus with 9 samples.

Results

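The 9 complement genes described here were C1qa, C1qb, C1qc, C1s1, C3, C4b, Cfb, C3ar1 and C5ar1, measured by RNA sequencing in 9 libraries of mouse aorta. They were picked by gene symbol from 17179 symbols listed in at least 1 library, and symbols not listed in a library were taken as 0. Each of the 9 was listed in every library and was among the 12997 genes tested, those with a mean of at least 1 FPKM. FPKM is a level scaled for transcript length and for the number of sequenced fragments, so levels of different genes can be set side by side.

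Complement is a cascade of plasma and tissue proteins that marks targets for uptake, releases inflammatory peptides and can form a membrane pore. In the classical pathway C1q, built from A, B and C chains, binds antibody or altered surfaces. Of its partner serine proteases C1r and C1s, C1s then cleaves C4 and C2. Factor B, encoded by Cfb, takes the place of C2 in the alternative pathway, and both routes end in cleavage of C3. The fragments C3a and C5a act on the receptors encoded by C3ar1 and C5ar1, which myeloid cells carry. In vessel walls and other tissues the C1q chains come mainly from macrophages, while C3, C4, C1s and factor B are also made by fibroblasts and other stromal cells.

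All mice were C57BL/6J and were killed on day 28. The 2 normal libraries came from mice given distilled water, and the others from mice given BAPN, an inhibitor of lysyl oxidase that weakens the aortic wall, at 1 g/kg/day. BAPN was given alone (2 libraries), with intraperitoneal TPA, a phorbol ester that activates AP-1, at 50 ng/g/day from day 1 (2 libraries), with gavage of T-5224, an AP-1 inhibitor, at 5 mg/kg/day (2 libraries), or with gavage of coQ10, coenzyme Q10, at 10 mg/kg/day (1 library). Gavage began on day 7 or 14; the day for each library is not given in the sources used. The T-5224 libraries are titled 2 and 3 weeks, and were taken as replicates because the treatment label numbers them 1 and 2. The coQ10 library is labelled co110, read here as the coQ10 named in the protocol. The design text speaks of 9 aortas, but the sources used give no sex or age and do not say which mice gave each library, so p-values measure only the spread between these libraries, part of which may be technical.

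Several features of the libraries bear on every value below. Haemoglobin transcripts took 68.9% to 74.1% of the summed FPKM in the BAPN and TPA libraries, 40.8% and 11.2% in the T-5224 libraries, 5.40% with coQ10 and 1.03% to 1.25% in the normal libraries. The summed FPKM of 7 airway epithelium markers, which aorta should lack, reached 12685 and 4856 with TPA, 18033 in normal replicate 1 and 4263 in T-5224 replicate 2, but was 15.5 to 39.8 elsewhere. Normal replicate 1 also listed 0 of 4 Y-linked genes, where each other library listed 4. Markers of smooth muscle, the main cell of the aortic wall, were present in every library, with summed FPKM from 723 to 18631. In such bulk samples, fewer cells of a type and less RNA per cell cannot be told apart. Because earlier results of these data had set normal replicate 1 and T-5224 replicate 2 apart from the rest, results are also given without this pair.

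The loci are given in RefSeq coordinates of GRCm38, the assembly of the build mm10 that the submitters' processing notes name. The 3 C1q genes lie side by side on chromosome 4, C1qb at 136880126 to 136886200, C1qc at 136889801 to 136892936 and C1qa at 136895916 to 136898844, with gaps of 3.60 and 2.98 kb. C4b (34728139 to 34743902) and Cfb (34856374 to 34862514) lie in the same part of chromosome 17, Cfb only 0.088 kb from C2, and C3 (57203967 to 57228136) lies farther along the same chromosome. C3ar1 (122847140 to 122856157) and C1s1 (124530344 to 124542392) are on chromosome 6, the latter 6.90 kb from C1ra, and C5ar1 (16246743 to 16259540) is on chromosome 7, 2.59 kb from C5ar2.

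RefSeq promoters of GRCm38.p6 were at hand for 6 of the 9 genes, C1qb, C1qc, C1s1, C3, C3ar1 and C5ar1. The 250 bases before each start were searched on both strands for AP-1 (TGANTCA), C/EBP (TTNNGNAA), STAT (TTCNNNGAA), NF-kB (GGG, any 5 bases, CC), PU.1 (AGAGGAA) and ISRE (GAAA, any 2 bases, GAAA) letters. The sequences of 4 are shown 5′ to 3′ on the minus strand, which carries the genes, with every match in capitals. C1qb and C1qc are shown because their levels ran together, C3 because its level varied most, and C3ar1 because it held the AP-1 match.
C1qb, chr4:136886201-136886450: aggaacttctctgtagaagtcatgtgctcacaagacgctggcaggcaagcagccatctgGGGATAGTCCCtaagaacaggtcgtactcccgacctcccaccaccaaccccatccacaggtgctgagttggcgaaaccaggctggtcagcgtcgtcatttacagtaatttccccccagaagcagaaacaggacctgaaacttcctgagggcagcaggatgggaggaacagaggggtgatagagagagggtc
C1qc, chr4:136892915-136893164: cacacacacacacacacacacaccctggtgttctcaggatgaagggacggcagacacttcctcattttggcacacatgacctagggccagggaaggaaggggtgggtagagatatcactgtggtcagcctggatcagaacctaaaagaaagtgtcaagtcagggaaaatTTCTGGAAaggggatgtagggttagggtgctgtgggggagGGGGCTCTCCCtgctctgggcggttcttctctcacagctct
C3, chr17:57228137-57228386: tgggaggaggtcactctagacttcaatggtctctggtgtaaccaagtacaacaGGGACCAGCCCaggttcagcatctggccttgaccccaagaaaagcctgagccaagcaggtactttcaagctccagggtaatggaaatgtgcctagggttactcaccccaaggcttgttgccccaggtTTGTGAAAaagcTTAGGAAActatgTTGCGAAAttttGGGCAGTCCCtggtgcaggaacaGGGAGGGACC
C3ar1, chr6:122856158-122856407: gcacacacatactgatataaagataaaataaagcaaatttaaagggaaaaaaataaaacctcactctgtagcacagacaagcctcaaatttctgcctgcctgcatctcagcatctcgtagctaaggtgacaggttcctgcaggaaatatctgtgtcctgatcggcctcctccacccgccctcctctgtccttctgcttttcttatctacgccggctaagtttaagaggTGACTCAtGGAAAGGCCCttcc

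The AP-1 letters, the element through which TPA and T-5224 are named to act, occurred in 1 of the 6 genes, as TGACTCA in C3ar1, 22 bases before the start, against 6.75% of 32851 promoters. C/EBP letters occurred in 4 of 6 (36.8% of all promoters), and the C3 promoter held them at 70, 58 and 45 bases before the start. NF-kB letters occurred in 5 of 6 (45.8% of all promoters), partly as the same stretch read on both strands. STAT, PU.1 and ISRE letters, present in 7.02%, 8.55% and 2.98% of all promoters, had no match in any of the windows of the 6 genes, which says only that these letters are not in them. C1s1 has 2 annotated starts and so 2 windows, which were counted as 1 gene, and its NF-kB match is in 1 of them. The shares over all promoters are per window. For C1qc, C1s1 and C5ar1 the annotated starts lie inside the loci given above, so their windows partly overlap these loci. That of C5ar1, 16259339 to 16259588, lies mostly inside its locus, which ends at 16259540.

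Of the pathway's initiating proteins, the C1q chains were among the more abundant transcripts in the tissue. C1qa, the A chain, measured 119 and 38.5 FPKM in the normal libraries, 66.5 and 29.8 with BAPN, 96.6 with coQ10, 132 and 84.1 with TPA and 101 and 135 with T-5224. Both T-5224 and both TPA libraries lay above both BAPN libraries, while the normal pair spanned most of the range. C1qb, the B chain, stood at 90.6 and 27.9 FPKM in the normal libraries, 88.5 and 32.0 with BAPN, 87.9 with coQ10, 131 and 127 with TPA and 97.5 and 145 with T-5224. Its 4 TPA and T-5224 libraries were the 4 highest of the 9. C1qc, the C chain, gave 88.5 and 25.1 FPKM in the normal libraries, 76.4 and 26.9 with BAPN, 89.7 with coQ10, 117 and 93.2 with TPA and 98.9 and 112 with T-5224. Here too those 4 libraries were the highest, and normal replicate 2 and BAPN replicate 2 were the lowest for each of the 3 chains.

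The 3 chains varied together from library to library. Pearson's r of log2(FPKM + 1) between them was 0.92 to 0.98 over the 9 libraries, and 0.93 to 0.98 over 7 libraries without normal replicate 1 and T-5224 replicate 2. Among the 12996 other tested genes, C1qc ranked 1 in likeness to C1qb and 1 to C1qa. As a description only, these correlations share the libraries' scaling and composition. Their summed FPKM ran from 88.8 in BAPN replicate 2 to 392 in T-5224 replicate 2. The mix of chains was less even: C1qa over C1qb was 1.31 and 1.38 in the normal libraries, 0.75 and 0.93 with BAPN, 1.10 with coQ10, 1.00 and 0.66 with TPA and 1.03 and 0.93 with T-5224. Both normal libraries thus had a higher ratio than any library from a BAPN-fed mouse.

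Macrophage markers were present in every library, 12 of 12 listed, with summed FPKM of 135 to 208 in normal, 118 to 197 in BAPN, 139 in coQ10, 172 to 222 in TPA and 162 to 181 in T-5224 libraries. The mean log2 level of the C1q chains stood above that of the macrophage markers by 2.10 to 3.22 in 8 libraries and by 4.13 in T-5224 replicate 2. In that library the C1q sum was the highest of the 9. Most of the 12 macrophage markers were lower there than in T-5224 replicate 1, with a mean log2 level of 2.90 against 3.69. Cd68, a lysosomal protein of macrophages, was at 22.1 FPKM against 50.7 in T-5224 replicate 1, and Csf1r, the receptor for macrophage colony-stimulating factor, was at 6.26 against 18.7. Adgre1, Mrc1, Fcgr1, Mertk, Cd14, Aif1 and Ms4a7 were lower too, and Folr2, a folate receptor, was at 10.3 against 11.2. Only Lyve1, a hyaluronan receptor, at 88.2 against 9.15, and Cd163, a scavenger receptor, at 9.56 against 3.42, were higher. The part of macrophage content in the C1q levels was not tested.

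**Figure D1:**
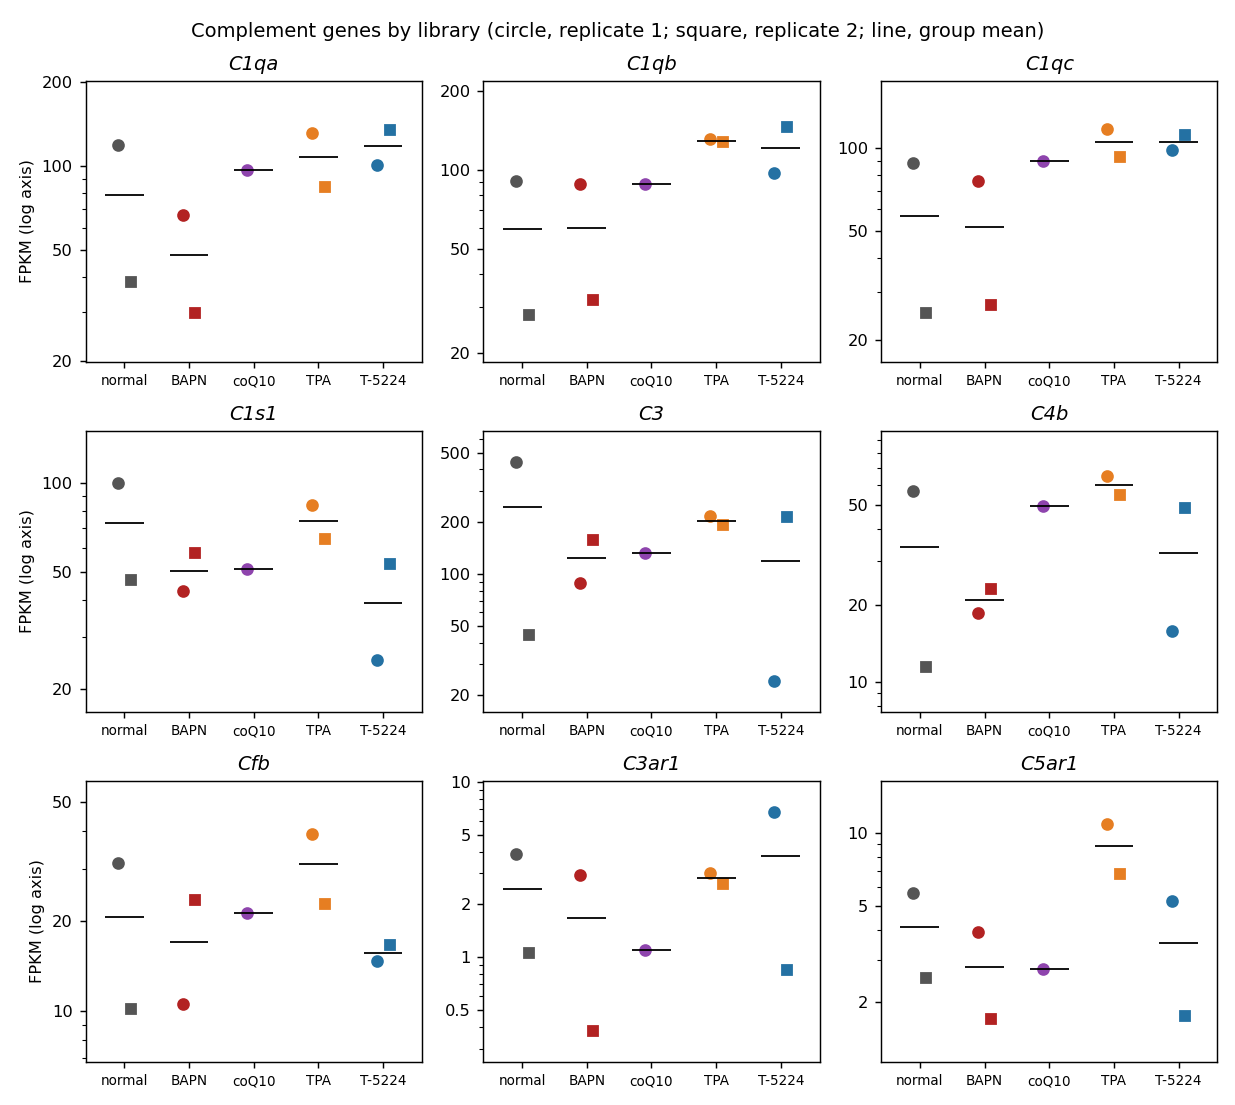
Level of each complement gene in FPKM on a log axis, by treatment group; circles are replicate 1, squares replicate 2, and lines the group means. The TPA libraries lie above both BAPN libraries for 7 genes, where 41.4% of tested genes separate that way. The C3 panel shows the widest spread, from 24.1 to 443 FPKM.

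C1s1 encodes C1s, the protease that cleaves C4 and C2 once C1q has bound. Its level was 99.5 and 46.9 FPKM in the normal libraries, 42.9 and 57.9 with BAPN, 51.0 with coQ10, 84.1 and 64.6 with TPA and 25.2 and 53.1 with T-5224. Normal replicate 1 was the highest library and T-5224 replicate 1 the lowest, and the TPA pair lay above the BAPN and the T-5224 pairs. C4b encodes C4, whose large fragment binds to surfaces and forms part of the C3 convertase. C4b stood at 56.4 and 11.4 FPKM in the normal libraries, 18.7 and 23.2 with BAPN, 49.2 with coQ10, 65.0 and 54.6 with TPA and 15.9 and 48.5 with T-5224. The BAPN pair was close together and below the TPA pair and the coQ10 library, whereas the normal and T-5224 pairs each held 1 high and 1 low library. The near-identical copies C4a, C1s2 and C1rb were at 0 to 0.90 FPKM, and the sources used do not say how the authors divided shared reads between copies, so the split between C4b and C4a, and between C1s1 and C1s2, is uncertain.

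C3, the component on which the pathways converge, had the highest mean level of the 9 genes, 167 FPKM over all libraries, at the 96.3 percentile of tested genes. Its FPKM was 443 and 44.2 in the normal libraries, 88.8 and 157 with BAPN, 131 with coQ10, 214 and 191 with TPA and 24.1 and 214 with T-5224. The normal libraries differed 10.0-fold and the T-5224 libraries 8.89-fold, against 1.77-fold between BAPN and 1.12-fold between TPA libraries. The 4 libraries with the highest C3 were normal replicate 1, both TPA libraries and T-5224 replicate 2, which are the 4 with airway marker sums of 4263 to 18033 FPKM, and the part of that RNA in the C3 values was not tested. Liver markers, for the organ that supplies plasma C3, were low, with summed FPKM of 5.04 to 62.0. Cfb, factor B, followed with 31.3 and 10.2 FPKM in the normal libraries, 10.6 and 23.6 with BAPN, 21.4 with coQ10, 39.2 and 22.8 with TPA and 14.7 and 16.6 with T-5224. Its groups overlapped except that both TPA libraries lay above the coQ10 library, which lay above both T-5224 libraries.

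C1s1, C3, C4b and Cfb varied more with each other than with the C1q chains. Their pairwise r was 0.72 to 0.91 over 9 libraries and 0.70 to 0.91 over 7, with C1s1 and C3 the closest pair at 0.91. Many other genes were as close or closer, since among the 12996 other tested genes C1s1 ranked 24 in likeness to C3, but Cfb ranked 593 to C3, and C4b ranked 491 and Cfb 398 to C1s1. Between them and the C1q chains r was lower, 0.11 to 0.69, and C4b had the highest values, 0.66 to 0.69 with the 3 chains. Within pairs of libraries the sets also ran differently: in the BAPN pair replicate 1 had more of each C1q chain, and replicate 2 more C1s1, C3, C4b and Cfb. The ratio of C3 to the C1q sum therefore ranged from 0.081 in T-5224 replicate 1 to 1.77 in BAPN replicate 2.

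The anaphylatoxin receptors were the least abundant members. C3ar1, the receptor for C3a, measured 3.85 and 1.05 FPKM in the normal libraries, 2.95 and 0.38 with BAPN, 1.10 with coQ10, 3.02 and 2.61 with TPA and 6.70 and 0.85 with T-5224. Replicates differed 7.88-fold within T-5224 and 7.76-fold within BAPN, and all groups overlapped with the neighbour in the order of means. C5ar1, the receptor for C5a that drives neutrophil and macrophage recruitment, was at 5.69 and 2.53 FPKM in the normal libraries, 3.91 and 1.70 with BAPN, 2.74 with coQ10, 11.0 and 6.77 with TPA and 5.27 and 1.75 with T-5224. The TPA libraries were the 2 highest of the 9. The receptors had an r of 0.76 with each other, 0.49 to 0.57 with the C1q chains and -0.22 to 0.51 with C1s1, C3, C4b and Cfb. Without normal replicate 1 and T-5224 replicate 2, r with the C1q chains was 0.71 to 0.82.

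**Figure D2:**
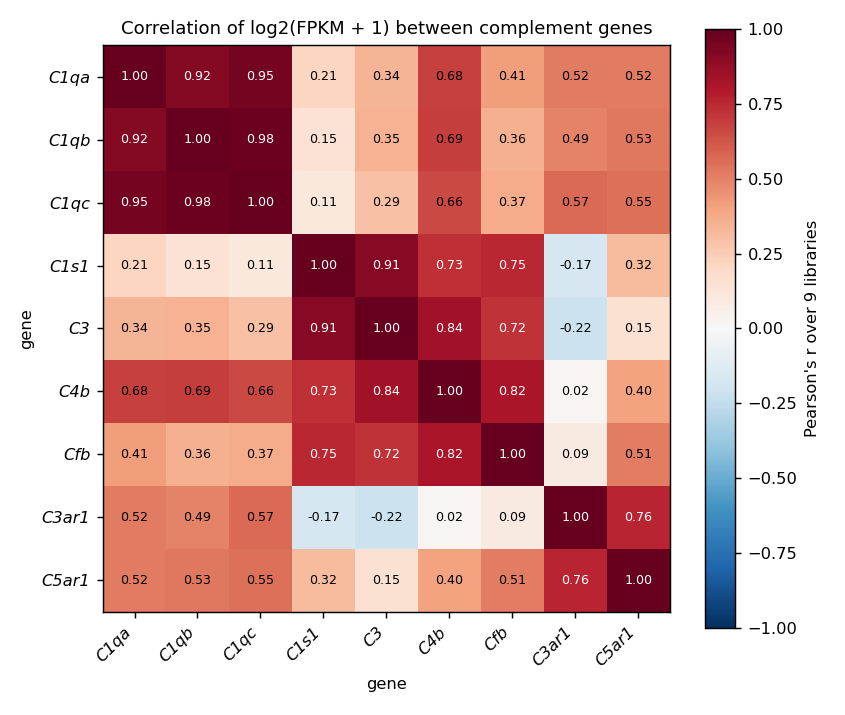
Pearson's r between the 9 complement genes, computed on log2(FPKM + 1) over the 9 libraries and given in each cell. The C1q chains form 1 block with r of 0.92 to 0.98, and C1s1, C3, C4b and Cfb another with 0.72 to 0.91.

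By group mean, the TPA group was first for C1qb, C1s1, C4b, Cfb and C5ar1, the T-5224 group for C1qa, C1qc and C3ar1, and the normal group for C3. Most neighbours in these orders could not be separated: of the 4 neighbouring pairs of groups per gene, 0 did not overlap for C1qa, C1s1 and C3ar1, 1 for C1qb, C3, C4b, Cfb and C5ar1, and 2 for C1qc. Apart from TPA above normal in C5ar1, each pair that did not overlap included coQ10, a single library with no spread of its own. These pairs were counted for the complement genes only. Changes below are differences in log2(FPKM + 1) from a linear model over all genes (limma), with Benjamini-Hochberg adjustment over the 12997 tested genes. The scale understates the change of genes near or below 1 FPKM, such as C3ar1.

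BAPN against normal asks how the dissection-inducing agent alone shifted complement transcripts. None of the 9 genes passed in limma, at an adjusted or at an unadjusted p under 0.05, in a comparison where 3.26% and 32.4% of tested genes did. Their changes lay between -0.59 for C1qa and 0.08 for C1qb, with a median of -0.29 beside -0.51 for all tested genes, and limma's adjusted p was 0.535 to 0.963. C1qa averaged 48.2 ± 26.0 FPKM with BAPN and 78.6 ± 56.8 in normal libraries (SD, n = 2 each). In no gene did the 2 groups separate, where 15% of tested genes were higher and 51.1% lower in both BAPN libraries. In TPM 9 of 9 were lower in both, as were 84.7% of tested genes. The 95% intervals were wide, from -2.08 to 0.90 for C1qa and from -3.29 to 2.79 for C3, so a change of 1 log2 unit in C3 was not detectable in either direction. Direction depended on the scaling: 7 of 9 genes were above 0 with median-of-ratios scaling, which put the median of all tested genes at -0.01, and 0 of 9 in TPM, which put it at -1.92 and called 5 of the 9, C1qa, C1s1, C4b, C5ar1 and Cfb, and 9637 tested genes. C3 depended on 1 library, at 1.40 higher with BAPN when normal replicate 1 was left out and at -1.90 when normal replicate 2 was. Without both normal replicate 1 and T-5224 replicate 2 the C3 change of 1.40 had an adjusted p of 0.0457 (limma), beside 4032 tested genes called, in a fit where the BAPN and TPA libraries alone set the spread.

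With TPA added to BAPN, 9 of 9 genes had a change above 0, where 61.8% of tested genes did, and none passed the adjusted threshold, which 0.0385% of tested genes passed. The changes ran from 0.55 for C1s1 to 1.47 for C4b, with a median of 1.18 beside 0.18 for all tested genes, and 9 of 9 were above 0 with each of 4 other scalings. C4b averaged 59.8 ± 7.38 FPKM with TPA against 20.9 ± 3.19 with BAPN (SD, n = 2 each), a log2 change of 1.47 (SE 0.779, 95% interval -0.38 to 3.33, limma adjusted p = 0.536). C5ar1 averaged 8.87 ± 2.96 against 2.81 ± 1.56 FPKM, a change of 1.40 (SE 0.567, interval 0.06 to 2.75), and was the 1 member with an unadjusted p under 0.05 (0.0434, limma adjusted p = 0.485), where 10.2% of tested genes had one. The C1q chains were 1.18 to 1.26 higher and C3 0.77 higher, each with an interval that included 0. Without BAPN replicate 2 the C1q difference was 0.65 for C1qa, 0.54 for C1qb and 0.45 for C1qc. Without BAPN replicate 1, C3 was 0.36, C1s1 0.34 and Cfb 0.33 higher. Both TPA libraries exceeded both BAPN libraries for 7 genes, C1qa, C1qb, C1qc, C1s1, C3, C4b and C5ar1, against 41.4% of tested genes. That number was 6 with median-of-ratios scaling and 8 with haemoglobin left out of the sum or in TPM, where 31.4%, 47.4% and 52.8% of tested genes separated that way. C4b passed in a fit of the BAPN and TPA libraries alone, with limma's adjusted p at 0.0321, as did 972 tested genes, and without normal replicate 1 and T-5224 replicate 2, with 0.0290, as did 1023.

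Markers of several cell types were also higher in the TPA libraries, though none of those below passed (limma, adjusted p). Fibroblast markers, 9 of 9 above 0 with a median change of 1.00, summed to 1982 to 2654 FPKM with TPA and 1118 to 1349 with BAPN. Mesothelial markers summed to 71.6 to 95.9 against 1.17 to 2.76 FPKM, and airway markers to 4856 to 12685 against 15.5 to 17.5 FPKM, with Sftpc and Sftpb at 0 in both BAPN libraries. Smooth muscle markers, 7 of 7 above 0 with a median of 1.53, summed to 2276 to 2886 against 723 to 1951 FPKM. Adipocyte markers, 5 of 6 above 0 with a median of 2.03, had a mean log2 level of 6.36 to 6.49 against 4.51 to 4.82. Their summed FPKM overlapped, at 3162 to 4270 with TPA and 3097 to 4515 with BAPN. Macrophage markers were above 0 in 10 of 12 with a median of 0.55. Monocyte markers were above 0 in 4 of 5 tested, and T and B cell markers in 4 of 7. Their medians were 0.24 and 0.12, beside 0.18 for all tested genes. The remaining lists went mostly the other way among tested genes. Endothelial markers were below 0 in 6 of 7, neutrophil in 6 of 7, red blood cell in 5 of 7 and liver in 3 of 4. The part of these cell types in the complement values was not tested.

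T-5224 against BAPN asks what an AP-1 inhibitor changed in BAPN-fed mice. No gene passed in limma after adjustment (0.0308% of tested genes did) or at an unadjusted p under 0.05 (18.3%). Both T-5224 libraries exceeded both BAPN libraries for 3 genes, the C1q chains, where 34.2% of tested genes separated that way. C1qa averaged 118 ± 24.2 FPKM with T-5224 against 48.2 ± 26.0 with BAPN (SD, n = 2 each), a change of 1.37 (SE 0.627, interval -0.13 to 2.86, limma adjusted p = 0.301). C1qb was 1.14 and C1qc 1.19 higher, with intervals that included 0. Without BAPN replicate 2 the changes were 0.80 for C1qa, 0.42 for C1qb and 0.46 for C1qc. With median-of-ratios scaling C1qa alone of the 3 still separated as higher, as did 17.1% of tested genes. With haemoglobin left out of the sum C1qa alone did so (9.58% of tested genes), and C1s1 was lower in both T-5224 libraries (22.2%). In TPM 5 genes separated as higher with T-5224, as did 62.3% of tested genes, and C1qa passed, at 2.11 (adjusted p = 0.0469, limma), as did 3168 tested genes. The other 6 genes overlapped, with changes of 0.69 for C3ar1, 0.41 for C4b, 0.19 for C5ar1, -0.02 for Cfb, -0.43 for C1s1 and -0.70 for C3. C3 again turned on 1 library, at 0.85 without T-5224 replicate 1 and -2.25 without T-5224 replicate 2. The latter change had an adjusted p of 0.0239 (limma) when normal replicate 1 was also left out, which left 1 T-5224 library, in a fit that called 2245 tested genes.

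The single coQ10 library allowed a comparison with BAPN if it is assumed to vary like the other groups. In limma 0 of the 9 genes passed after adjustment, against 0.0154% of tested genes, and 0 had an unadjusted p under 0.05, against 19.8%. Changes were 1.20 for C4b, 1.10 for C1qa, 0.96 for C1qc, 0.71 for C1qb and 0.41 for Cfb, and between -0.15 and 0.15 for C3, C1s1, C3ar1 and C5ar1. The coQ10 library lay above both BAPN libraries for C1qa, C1qc and C4b, 3 genes where 59.6% of tested genes did so. It lay above both for 8 genes in TPM (87.1% of tested genes), and with median-of-ratios scaling above both for 2 (39.4%) and below both for 1 (40.0%). In TPM C1qa, C1qc, C1s1 and C4b passed, as did 7328 tested genes. C4b passed without normal replicate 1 and T-5224 replicate 2, at an adjusted p of 0.0344 (limma), as did 2967 tested genes. Without BAPN replicate 2 the change was 0.53 for C1qa, -0.0094 for C1qb and 0.23 for C1qc. Marker sums also differed in the coQ10 library, at 3566 against 1118 to 1349 FPKM in BAPN libraries for fibroblast, 10451 against 723 to 1951 for smooth muscle and 78.8 against 1.17 to 2.76 for mesothelial markers. The mean log2 level of adipocyte markers was 7.37 against 4.51 to 4.82, and the part of these markers in the complement values was not tested.

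TPA and T-5224 act on AP-1 in opposite directions, and setting one against the other again gave 0 of 9 genes past the adjusted threshold in limma (0.0154% of tested genes passed) and 0 at an unadjusted p under 0.05 (10.9%). Changes were 1.47 for C3, whose libraries overlapped, 1.22 for C5ar1, 1.07 for C4b, 0.99 for C1s1 and 0.89 for Cfb, while the C1q chains and C3ar1 lay between -0.14 and 0.12. C1s1, C4b, Cfb and C5ar1 separated between the groups, 4 genes where 16.5% of tested genes were higher in both TPA libraries. In TPM, a scaling that forces each library to the same total, 0 separated that way and 3 separated in the other direction (7.22% and 49.1% of tested genes), and with haemoglobin left out of the sum 8 separated as higher with TPA (37.7%). The median change of the 9 genes was 0.89 beside -0.08 for all tested genes. The upper end of the 95% interval was above 1 log2 unit for 9 of 9 genes, and that of C1qa ran from -1.64 to 1.35. The T-5224 libraries differed in these values. Without T-5224 replicate 1 the change was -0.08 for C3, 0.29 for C4b and 0.46 for C1s1. Without T-5224 replicate 2 it was 3.02, 1.84 and 1.51, and 0.62 for C5ar1. When normal replicate 1 was left out along with the latter, which left 1 T-5224 library, C3 (adjusted p = 0.0272) and C4b (adjusted p = 0.0340) passed in limma, as did 584 tested genes.

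**Figure D3:**
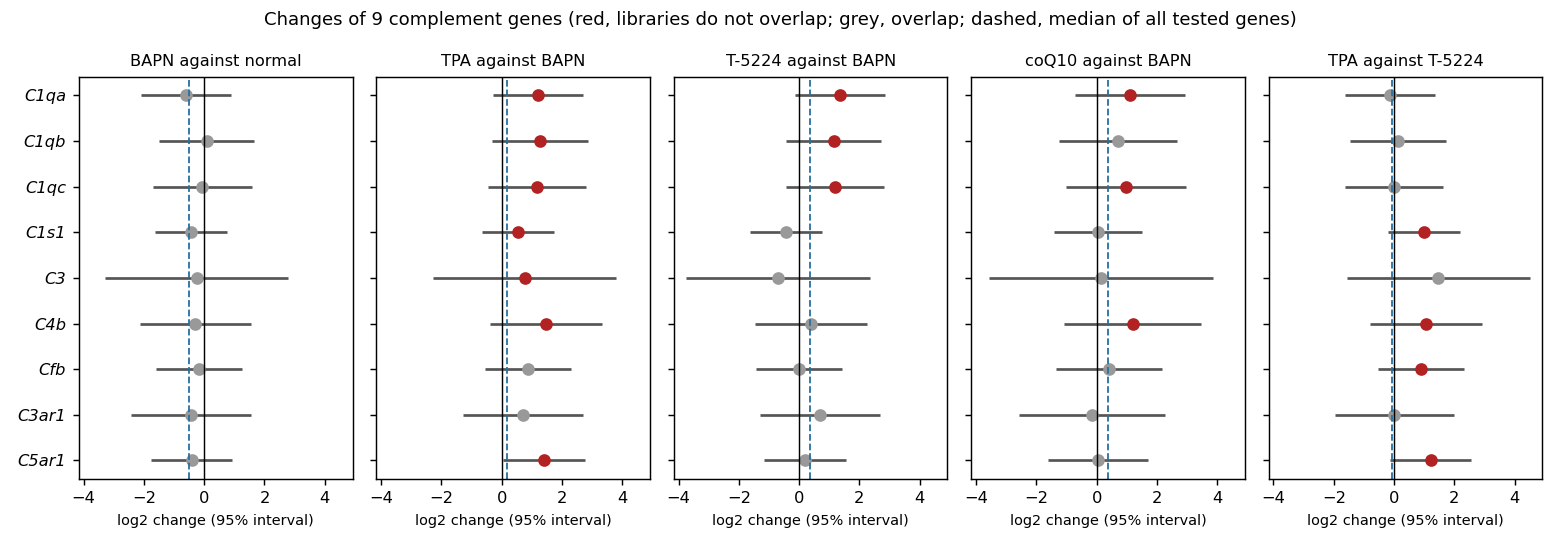
Change of each complement gene in log2(FPKM + 1) with its 95% interval from limma, 1 panel per comparison; red points mark genes whose libraries do not overlap between the groups, and the dashed line is the median of all 12997 tested genes. In TPA against BAPN all 9 points lie right of that median, and the interval of C5ar1 there, 0.06 to 2.75, is the 1 that excludes 0.

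Other genes of the cascade gave the same count of 0 in each of the 5 comparisons (limma, adjusted p). Of 14 other genes of the classical and lectin pathways 13 were listed and 5 tested. C1ra, the partner protease of C1s, ran from 23.4 to 66.1 FPKM and differed by -0.73 in BAPN against normal (adjusted p = 0.268, limma). Colec11 and Colec12, collectins that recognise sugars, differed by 0.79 and -1.59. In the alternative pathway Cfd, factor D, which cleaves factor B and is known as adipsin for its source in fat, covered the widest range, 4332 and 167 FPKM in the normal libraries, 88.3 and 173 with BAPN, 1607 with coQ10, 1213 and 1515 with TPA and 118 and 1066 with T-5224. Its 5 highest libraries were the 4 with airway markers and coQ10, which are also the 5 with the highest mean log2 level of 6 adipocyte markers, 5.95 to 8.55 against 4.45 to 5.20 in the others. The summed FPKM of these adipocyte markers did not divide the libraries so, at 3162 and 4270 with TPA against 3097 to 4515 with BAPN. The coQ10 library had an airway marker sum of 31.5 FPKM. The part of fat in the Cfd values was not tested. Cfp, properdin, which stabilises the alternative convertase, ran from 7.02 to 35.7 FPKM.

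Of 7 genes for C5 and the membrane pore, 1 reached the mean needed for testing, C7, at 1.00 to 29.1 FPKM. C8a was not listed in any library, C6 ran from 0.03 to 2.42 FPKM, and Hc, the gene for C5, from 0 to 0.78 FPKM. Of 16 regulators 8 were tested. Clu, clusterin, which binds the terminal complex, was at 224 to 731 FPKM. In BAPN against normal it differed by -1.04, and Cr1l, the rodent regulator Crry, by -1.06, and neither passed (adjusted p = 0.231 and 0.0796, limma). Among 8 other receptors, 6 tested, Itgb2, the shared chain of complement receptors 3 and 4, differed by 1.62 in BAPN against normal, Cd93 by 0.79 and Calr, calreticulin, a chaperone that binds C1q, by -1.38, and none of these passed.

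Of 19 genes for signals and factors known to induce complement transcription, 17 were tested, and 3 rose and 1 fell in BAPN against normal, where 3.26% of all tested genes passed. Il6, the acute-phase cytokine, was at 0 and 0.10 FPKM in the normal libraries, 215 and 140 with BAPN, 0.94 with coQ10, 7.58 and 12.0 with TPA and 1.30 and 1.37 with T-5224. It rose by 7.38 with BAPN (adjusted p = 0.00229, limma). Il1b rose by 5.56 (adjusted p = 0.0474, limma) and Osm, oncostatin M, by 3.83 (adjusted p = 0.0475, limma), and Il6st, the shared receptor chain gp130 through which Il6 and Osm signal, fell by 1.45 (adjusted p = 0.0474, limma). Against BAPN, Il6 fell by 4.04 with TPA (adjusted p = 0.0324), fell by 6.22 with T-5224 (0.00713) and fell by 6.49 with coQ10 (0.0129), all in limma. Osmr, Irf8 and Spi1 were named by the same rule, and each missed the threshold in all 5 comparisons, with BAPN changes of -0.50, 1.82 and 1.36. The libraries with the most Il6 were BAPN replicates 1 and 2, in which C3 stood at 88.8 and 157 FPKM, inside the range of the other groups. A link between Il6 and C3 was not tested.

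Neutrophil markers were also highest with BAPN alone, at summed FPKM of 1083 to 1909 against 27.2 to 34.3 in normal libraries. The sums were 103 with coQ10, 252 to 791 with TPA and 145 to 381 with T-5224. In BAPN against normal 2 of 7 tested rose (limma, adjusted p), where 3.26% of all tested genes passed. The part of neutrophils in the cytokine values was not tested.

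**Figure D4:**
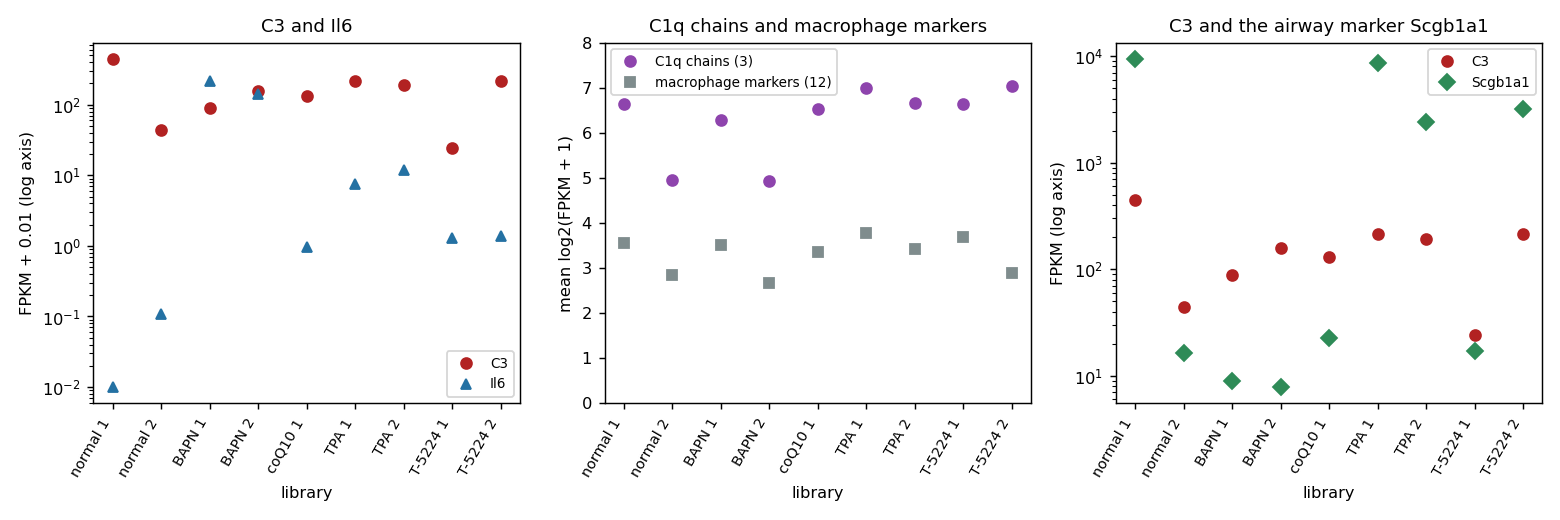
Left, C3 and Il6 by library on a log axis after adding 0.01 FPKM; middle, mean log2(FPKM + 1) of the 3 C1q chains and of 12 macrophage markers; right, C3 and the airway marker Scgb1a1 on a log axis. Il6 is highest in the BAPN libraries, at 215 and 140 FPKM, and C3 in normal replicate 1, at 443 FPKM. Scgb1a1 is at 9385 FPKM in normal replicate 1, and links between these genes were not tested.

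Likeness to genes outside the 9 members was ranked with clone symbols and mitochondrial genes left out. The 5 genes most like the mean of the C1q chains were Nup37, Tcea3, Nnmt, Akr1b8 and Fahd1 (Pearson's r of 0.91 to 0.93). For C3 they were Pitpnc1, Deptor, Steap4, Sowahc and Dapk1 (0.93 to 0.97), for C4b Gys2, Slc5a6, Serpina3c, Slc1a3 and Ltc4s (0.95 to 0.97), and for C5ar1 Nfam1, Siglece, Arsi, Mrc1 and Enc1 (0.89 to 0.95). Mrc1, the mannose receptor, is the 1 gene among these 20 that was also on the macrophage marker list. These likenesses are descriptions over 9 libraries that share scaling and tissue makeup.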

How the data were processed

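RNA from 9 aortas was sequenced after Trizol extraction and TruSeq library preparation, per the labels' protocols. Each library has its own table of FPKM by gene symbol, made and deposited by the authors, in which genes at 0 are not listed, and genome build mm10 is named in the submitters' processing notes. The sources used name no aligner, counting tool or use of strand. FPKM carry no counts, and the spacing of low values gave no clear step, so depth is unknown.

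Genes with a mean of at least 1 FPKM were tested in limma 3.58.1 (R 4.3.3) on log2(FPKM + 1) with an intensity trend, 5 groups and 4 residual degrees of freedom over all 9 libraries. P-values are two-sided and Benjamini-Hochberg adjusted over all tested genes, with a threshold of 0.05. The model was tested on simulated data first. Alternatives were other scalings, pseudocount, filter, group pairs, moderation, replicate block and libraries left out. Promoters and loci came from RefSeq tables. Tables and figures were made with numpy 2.4.6, pandas 2.3.3, matplotlib 3.10.9 and scipy 1.17.1 under python 3.11.15.

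The members, gene lists, marker lists and tests were chosen with earlier results of these data known. All 9 members were named. Of the other complement and inducer lists, every gene that passed in any comparison was named, plus up to 3 with the smallest p in BAPN against normal; 1 gene named by this rule is not reported here. Likeness names the 5 tested genes with the highest Pearson's r, with the members, Riken, Gm and other clone symbols and mitochondrial genes left out.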

Additional observations from a re-analysis of the deposited data

How the results depend on the processing

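The count of complement genes called was 0 in each comparison and stayed 0 under median-of-ratios scaling, with haemoglobin left out of the sum, under quantile normalization, with a pseudocount of 0.1, with no filter, with a minimum mean of 5 FPKM (7 of the 9 genes), without the intensity trend and with the replicate block. In TPM it was 5 in BAPN against normal, 1 in T-5224 against BAPN and 4 in coQ10 against BAPN, and it was 1 in TPA against BAPN when that pair of groups was fitted alone. With libraries left out it ranged from 0 to 1 in the BAPN, TPA, T-5224 and coQ10 comparisons and from 0 to 2 in TPA against T-5224, each call coming from the fit without normal replicate 1 and T-5224 replicate 2. Over all tested genes the number called in BAPN against normal was 424, and 226 with median-of-ratios scaling, 28 with haemoglobin left out, 9637 in TPM, 325 with quantile normalization, 152 with the pseudocount of 0.1, 53 with no filter, 718 with the higher minimum, 37 with the pair of groups alone, 197 without the trend and 0 to 4032 with libraries left out. In TPA against BAPN it was 5, and 972 with that pair alone, 14 with quantile normalization and 0 to 1023 with libraries left out. In the T-5224 comparison with BAPN it was 4, against 35 with median-of-ratios scaling, 3168 in TPM and 0 to 2245 with libraries left out, in coQ10 against BAPN 2, against 7328 in TPM and 0 to 2967, and in TPA against T-5224 2, against 0 to 666.

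The labels do not say that replicate numbers mark a shared animal, litter or day. The correlation of the replicate differences between groups ran from -0.44 to 0.18. This cannot decide whether libraries were paired, because the differences also carry the tissue makeup of each library. The replicate block left 0 complement genes called in each comparison, gave 8 calls over all genes in BAPN against normal, and turned C5ar1 in coQ10 against BAPN to -0.41.

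Several log2 changes, none of them called, changed sign with the scaling. In BAPN against normal, median-of-ratios scaling gave 0.52 for C1qc, 0.13 for C1s1, 0.33 for C3, 0.28 for C4b, 0.38 for Cfb and 0.034 for C5ar1. Quantile normalization gave 0.37 for C1qc, 0.14 for C3, 0.16 for C4b and 0.33 for Cfb, leaving haemoglobin out gave 0.071 for C1qc, and TPM gave -1.55 for C1qb. The median of all tested genes in that comparison was -0.51 as deposited, -0.01 with median-of-ratios scaling, -0.40 with haemoglobin left out, -1.92 in TPM and -0.09 with quantile normalization. In T-5224 against BAPN, TPM gave 0.32 for C1s1, 0.059 for C3 and 0.69 for Cfb, leaving haemoglobin out gave -0.16 for C4b and -0.16 for C5ar1, quantile normalization gave -0.047 for C4b, and median-of-ratios scaling gave -0.083 for C5ar1. In coQ10 against BAPN, median-of-ratios scaling gave -0.45 for C1s1, -0.34 for C3, -0.051 for Cfb and -0.31 for C5ar1. Leaving haemoglobin out gave -0.22 for C1s1, -0.11 for C3 and -0.14 for C5ar1, quantile normalization gave -0.47 for C1s1, -0.33 for C3, -0.075 for Cfb and -0.076 for C5ar1, and TPM gave 0.60 for C3ar1. In TPA against T-5224, median-of-ratios scaling gave 0.015 for C1qa and 0.15 for C1qc, leaving haemoglobin out gave 0.55 for C1qa and 0.68 for C1qc, quantile normalization gave 0.34 for C1qa, 0.47 for C1qc and -0.30 for C3ar1, and TPM gave -0.42 for C1qb and -0.39 for C3ar1. The cause of these shifts beyond the rescaling itself was not tested.

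With libraries left out, sign changes occurred for these genes. In BAPN against normal the range was -1.39 to 0.21 for C1qa, -0.75 to 0.91 for C1qb, -0.94 to 0.83 for C1qc, -0.98 to 0.087 for C1s1, -1.90 to 1.40 for C3, -1.19 to 0.33 for C3ar1, -1.40 to 0.81 for C4b, -0.88 to 0.045 for C5ar1 and -0.94 to 0.59 for Cfb. In T-5224 against BAPN it was -0.96 to 0.090 for C1s1, -2.25 to 0.85 for C3, -0.34 to 1.72 for C3ar1, -0.37 to 1.18 for C4b, -0.40 to 0.78 for C5ar1 and -0.56 to 0.52 for Cfb. In coQ10 against BAPN it was -0.0094 to 1.43 for C1qb, -0.18 to 0.24 for C1s1, -0.26 to 0.56 for C3, -0.91 to 0.61 for C3ar1, -0.39 to 0.47 for C5ar1 and -0.13 to 0.95 for Cfb. In TPA against T-5224 it was -0.47 to 0.18 for C1qa, -0.17 to 0.40 for C1qb, -0.18 to 0.15 for C1qc, -0.082 to 3.02 for C3 and -1.02 to 1.04 for C3ar1. In TPA against BAPN C3ar1, at -0.052 to 1.46, was the 1 gene to do so. The depth of the libraries is unknown, which limits values near 0 such as those of C3ar1 and of the terminal genes.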
